A study of Mus musculus with 2 samples.

Results

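Antiviral interferon-stimulated genes (ISGs) were followed in wild type (WT) macrophages and in macrophages with a deletion targeted to the gene of tristetraprolin (TTP, gene *Zfp36*). TTP is a zinc finger protein that binds AU-rich elements in mRNA and recruits the machinery that removes poly(A) tails. The 46 ISGs were taken by symbol from a table of FPKMs for 37450 genes with a value in both libraries, and each symbol had exactly 1 row. FPKM stands for fragments per kilobase, relative to all mapped fragments, so that levels can be compared between genes of different length. The table holds 1 library of WT bone marrow-derived macrophages (BMDMs) and 1 library of ΔM BMDMs. ΔM stands for C57BL/6 mice in which floxed *Zfp36* is deleted in myeloid cells, since the Cre of LysMCre is under control of the lysozyme M gene, and the WT animals were littermates. BMDMs of both genotypes were grown with CSF-1 from mice 7 to 9 weeks old, given 100 μM 4-thiouridine for 16 h and then LPS at 10 ng/ml for 6 h. Unstimulated cells were not analysed here, so the values show levels under LPS and no induction. The number of animals behind a library is not given in the sources used here. With 1 library per genotype a difference has no replicate check, and neither a standard error nor a p-value is given.

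ISGs are the effectors of the type I interferon response. LPS engages TLR4, whose adaptor TRIF activates the kinases TBK1 and IKKε. These kinases phosphorylate IRF3, which switches on the interferon β gene. Secreted interferon binds the IFNAR receptor, its kinases JAK1 and TYK2 are activated, and a complex that contains IRF9 binds the interferon-stimulated response element (ISRE) in ISG promoters. The encoded proteins sense viral nucleic acids, block translation, deplete nucleotides, or hold virions at the membrane, and macrophages express many of them after LPS.

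The ISRE is shown first because it is the sequence that these genes are known to share. Its core was searched as GAAA, any 2 bases, GAAA, on both strands of RefSeq promoters (GRCm38.p6) reaching from 250 bases before to 50 bases after a start site. Promoters were listed for 37 members, and 18 of them (48.6%) held the core in at least 1 promoter. Of all 27025 genes with a promoter, 3.99% held it. No promoter was found under the symbols *Dhx58*, *Ifi204*, *Mx1*, *Mx2*, *Oas2*, *Parp14*, *Parp9*, *Usp18* and *Zbp1*, so these members were not searched for the core. Overlapping matches were counted separately, which gave 30 matches, 20 of them before the start site. A match describes letters in a window and was not tested as a binding site. The lines below give windows of 30 bases on the strand of the gene for members that cover the range of levels, with the core in capitals (TTTC in place of GAAA marks a match on the other strand).
Isg15, chr4:156200871-156200900, minus strand: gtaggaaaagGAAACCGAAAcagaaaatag
Ifit1, chr19:34640794-34640823, plus strand: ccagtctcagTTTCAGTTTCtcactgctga
Ifit3, chr19:34583363-34583392, plus strand: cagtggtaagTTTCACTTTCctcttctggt
Rsad2, chr12:26456553-26456582, minus strand: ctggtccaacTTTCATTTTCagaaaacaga
Oas1a, chr5:120907520-120907549, minus strand: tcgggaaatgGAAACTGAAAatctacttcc
Oas1g, chr5:120887606-120887635, minus strand: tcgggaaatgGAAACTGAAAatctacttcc
Bst2, chr8:71537577-71537606, minus strand: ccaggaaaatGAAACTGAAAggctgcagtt
Trim21, chr7:102565450-102565479, minus strand: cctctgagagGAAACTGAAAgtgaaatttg
The windows of *Oas1a* and *Oas1g* were identical. *Isg15* held 3 overlapping matches centred 61 to 73 bases before the start site, and *Ifit1* and *Ifit3* held a pair each. Members whose promoter held the core had log2 ratios (ΔM to WT) with a median of 0.01, and the 19 members with a promoter but no match had a median of 0.05.

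**Figure D1:**
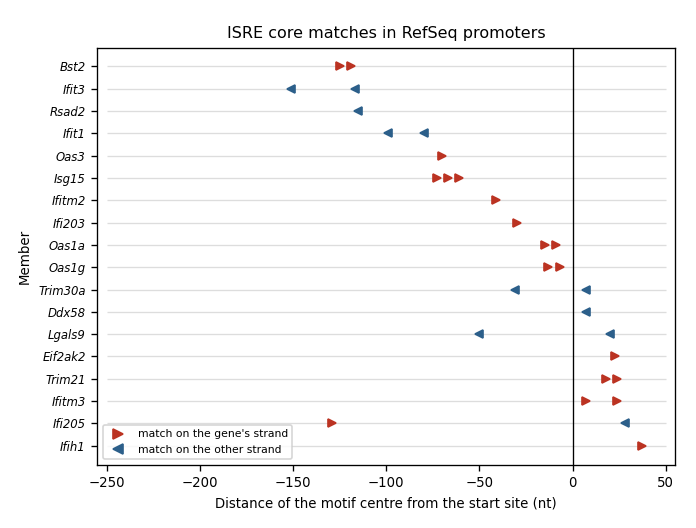
Positions of the ISRE core in RefSeq promoters of the 18 members that held it. The x axis gives the distance of the centre of each match from the start site in nucleotides, arrowheads give the strand of the match, and the 30 matches lie between 151 bases before and 37 bases after the start site.

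Target sites of TTP are shown because its gene is the one targeted for deletion in ΔM. Members were matched by Ensembl identifier to gene lists of TTP crosslink sites from BMDMs after LPS. A site in the 3′ UTR was listed for 7 members (*Cmpk2*, *Ifit2*, *Rnf213*, *Rsad2*, *Sp100*, *Trim30a* and *Usp18*) and sites in introns alone for 12 others. The share over all genes was not calculated, so whether these counts are many or few was not tested. The authors kept sites above a minimum number of crosslinks, which a weak site in an abundant transcript can also reach. The copy of the site listing used here is shortened, so that the sites of *Rnf213* that could be read are all intronic and *Trim30a* has none. The site sequences of members that could be read matched the mm9 genome (NCBIM37) in 58 of 58 cases. For *Rsad2* the site listed first was intronic and 63 nt long, and its 3′ UTR sites were 2 to 4 nt long. The lines below give 1 site of each of 4 members in mm9 on the strand of the gene, with the listed site in capitals and flanking bases in lower case.
Cmpk2, chr12:27163762-27163789, plus strand, 3′ UTR: cacACAAATTTAATTTATCTTAATAagc
Usp18, chr6:121220605-121220633, plus strand, 3′ UTR: tcaacgagaATAATAATTTAaaaacaatt
Ifit2, chr19:34650889-34650916, plus strand, 3′ UTR: ataataaacTTTGTTTATAagtaacaca
Rsad2, chr12:27130159-27130186, minus strand, 3′ UTR: tacggactgttgTTATtagaatacagtc
The log2 ratios of *Cmpk2* and *Usp18* were 0.23 and 0.30, and those of *Ifit2* and *Rsad2* were -0.17 and -0.47. The 7 members with a 3′ UTR site in the gene lists had log2 ratios on both sides of 0, 4 above and 3 below, with a median of 0.09. Without *Rnf213* these were 3 above and 3 below, with a median of -0.00. Of the 12 members with intronic sites alone, 6 had ratios above 0 and 6 below, with a median of -0.01. The 27 members without a listed site had a median of 0.03.

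The targeted gene was checked before the members. *Zfp36* (mm9, chromosome 7, 29161803 to 29164274, minus strand) stood at 65.3 FPKM in WT against 16.7 FPKM in ΔM, a log2 ratio of -1.90. Some *Zfp36* RNA was thus still counted in ΔM, and where it came from was not tested. All log2 ratios here were calculated as ΔM to WT after adding 1 FPKM to both values. Depth recovered from the steps between low FPKMs was about 36800000 fragments in WT and 32600000 in ΔM. The macrophage markers *Cd68*, *Csf1r*, *Emr1*, *Itgam*, *Lyz2*, *Cd14*, *Fcgr1* and *Mrc1* ranged from 5.45 to 2481 FPKM in WT and from 11.6 to 1356 FPKM in ΔM. Of these 8, 2 passed 1.5-fold, *Lyz2*, the lysozyme M gene itself, at 2481 and 1356 FPKM (log2 ratio of -0.87) and *Mrc1* at 5.45 and 11.6 FPKM (log2 ratio of 0.96). Their part in the values of the members was not tested. Of 28 markers of T cells, B cells, neutrophils, dendritic cells, fibroblasts and erythroid cells, 27 were at or below 0.41 FPKM in both libraries. The exception was *Tcf4*, listed for plasmacytoid dendritic cells but also made elsewhere, at 52.4 and 48.6 FPKM, while *Siglech*, *Ccr9* and *Klk1* of the same list were at or below 0.11 FPKM.

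The antiviral ISGs were abundant in both genotypes and differed little between them. All 46 passed the minimum mean of 1 FPKM, and all 46 lay above the WT median of 6.34 FPKM of protein-coding genes. Their levels ranged from 23.4 FPKM (*Trim21*) to 731 FPKM (*Rsad2*) in WT and from 18.8 to 527 FPKM, for the same genes, in ΔM. The median level was 135 FPKM in WT against 146 FPKM in ΔM. Summed over the members, FPKM reached 7631 in WT and 7619 in ΔM. This was 3.57% in WT and 3.58% in ΔM of the sum over protein-coding genes. Differences in opposite directions offset each other in these sums, since *Rsad2*, the highest member, was lower in ΔM while 26 of the 46 members had ratios above 0. In bulk libraries, the number of ISG-expressing cells and the ISG RNA per cell cannot be told apart.

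A member was called higher or lower where its ratio passed 1.5-fold after adding 1 FPKM, that is, a log2 ratio beyond 0.58 in either direction. None of the 46 members (0 higher, 0 lower) passed this threshold. Over the 10765 genes of all types with a mean of at least 1 FPKM, 11.2% were at least 1.5-fold higher in ΔM and 7.51% at least 1.5-fold lower. Over the 8078 protein-coding genes among them, 4.82% were higher and 5.36% lower. The members covered a narrow span, from a log2 ratio of -0.47 to 0.35, with quartiles at -0.10 and 0.09 and a median of 0.04. The corresponding median was 0.03 over all genes and 0.00 over protein-coding genes, whose quartiles were -0.19 and 0.18. Of the members, 26 (56.5%) had a ratio above 0 and 20 (43.5%) below. Ratios above 0 were found for 53.8% of all genes and 49.5% of protein-coding genes, and ratios below 0 for 45.9% and 50.2%. A further 1632 protein-coding genes had a mean FPKM in the range of the members (21.1 to 629 FPKM). Their median level was 43.5 FPKM in WT, against 135 FPKM for the members, so the levels are not matched. Their quartiles were -0.18 and 0.12, 45.8% had a ratio above 0 and 54.2% below, and 7.05% passed 1.5-fold in either direction. The counts above and below 0 given for the groups of members are to be read against these shares, since no member passed 1.5-fold. These are descriptions of 1 pair of libraries, and whether the members differ from other genes was not tested.

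**Figure D2:**
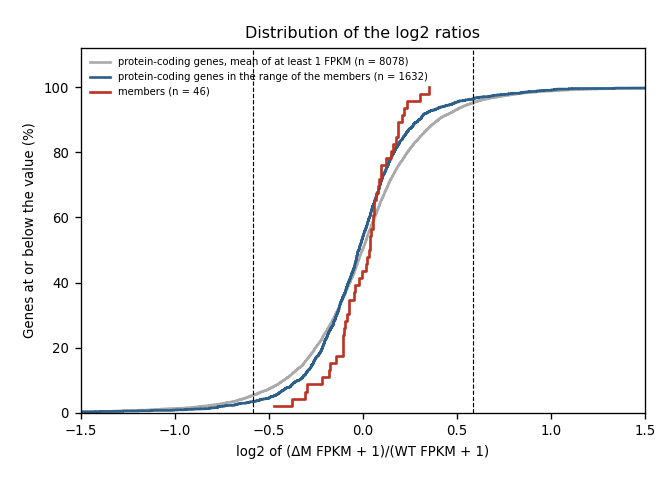
Cumulative distribution of log2 ratios of ΔM to WT (x axis, after adding 1 FPKM) as the percentage of genes at or below each value (y axis). The 46 members run from -0.47 to 0.35 and stay between the dashed lines at 1.5-fold, beyond which 7.05% of the 1632 protein-coding genes in the same FPKM range lie. Those genes had a median of 43.5 FPKM in WT, against 135 FPKM for the members.

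Counting error was smaller than the ratio for most members but not for all. Fragments per member and library were estimated from FPKM, depth and the median length of the annotated transcripts, at about 1068 to 101857. The 95% intervals left 34 of 46 ratios on 1 side of no difference, 19 of them above 0 and 15 below. The intervals of the other members included no difference. The median length was 666 nt for *Eif2ak2*, 856.5 nt for *Oasl2* and 2138 nt for *Trim25*. Their longest annotated 3′ UTRs alone had 2575, 1848 and 3572 nt. Too short a length gives too few fragments and too wide an interval, so the count of 34 depends on these lengths. Such intervals cover counting error only and not the variation between cultures or animals. A smaller threshold of 1.2-fold (a log2 ratio beyond 0.26), chosen after seeing the data, was passed by 2 members upwards, *Ifi44* and *Usp18*, and by 4 downwards, *Rsad2*, *Ifi205*, *Parp9* and *Trim21*. At this threshold 24.9% of genes of all types were higher and 19.2% lower, and 18.0% of protein-coding genes were higher and 18.9% lower. The 6 members make up 13.0% of the group, where 27.3% of the other protein-coding genes in the same FPKM range passed 1.2-fold in either direction. Those genes had a lower median level than the members (43.5 against 135 FPKM in WT), so the 2 shares are not matched for level.

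**Figure D3:**
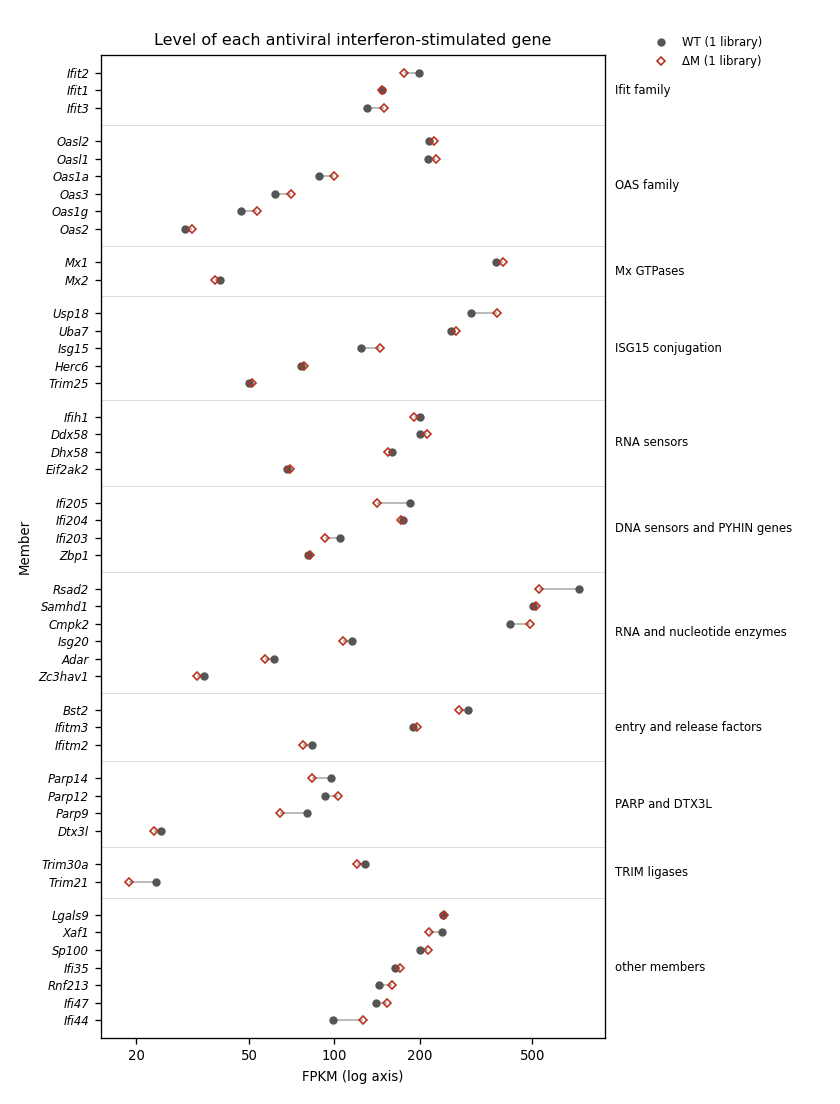
FPKM (log axis) of each of the 46 members in the WT library (filled circles) and the ΔM library (open diamonds), grouped by role. The symbols of a member lie close together at every level, from *Trim21* at 23.4 and 18.8 FPKM to *Rsad2* at 731 and 527 FPKM.

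Among enzymes of RNA and nucleotides, the most abundant members differed in opposite directions. *Rsad2*, encoding viperin, a radical SAM enzyme that makes a chain-terminating nucleotide, was the highest member in both libraries at 731 FPKM in WT against 527 FPKM in ΔM. Its log2 ratio of -0.47 was the lowest of all members, with a counting interval from -0.49 to -0.46. *Cmpk2*, a nucleotide kinase of mitochondria, lies next to *Rsad2* on chromosome 12, is transcribed from the opposite strand, and is separated from it by 12751 bp. It stood at 416 FPKM in WT against 489 FPKM in ΔM, a log2 ratio of 0.23 with a counting interval from 0.22 to 0.25. The neighbours therefore lay on opposite sides of 0, beyond counting error for both. *Samhd1*, which hydrolyzes deoxynucleotides, was at 500.3 and 516 FPKM. The other enzymes were less abundant. *Isg20*, an RNA exonuclease, was at 115 FPKM in WT against 107 FPKM in ΔM. *Adar*, which edits adenosine to inosine in double-stranded RNA, was at 61.2 and 56.9 FPKM. *Zc3hav1*, the zinc finger antiviral protein that recognizes CpG in RNA, was at 34.7 and 32.8 FPKM. These 3 had log2 ratios between -0.10 and -0.08.

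The Ifit proteins bind foreign RNA and interfere with its translation, and their genes form a cluster on chromosome 19. *Ifit1* was nearly equal in the libraries, with 147.2 FPKM in WT against 147.0 FPKM in ΔM. *Ifit2* stood at 199 FPKM in WT against 177 FPKM in ΔM, a log2 ratio of -0.17. *Ifit3* stood at 129.9 and 150.1 FPKM, a log2 ratio of 0.21. *Ifit2* and *Ifit3* are separated by 7111 bp on the same strand, and they too lay on opposite sides of 0. The value of *Ifit3* is less certain, since 31.7% of its stretches of 100 nt recur in a second gene, *I830012O16Rik*, and reads that mapped to several places were dropped by the authors.

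All 6 members of the OAS family had log2 ratios above 0, from 0.05 to 0.18, where 53.8% of all genes lay above 0, and none passed 1.2-fold. The OAS enzymes join adenylates into the short chains that switch on RNase L, while the OAS-like proteins act in other ways. *Oas1a* was at 88.1 FPKM in WT against 99.5 FPKM in ΔM. *Oas1g* was at 46.7 and 53.2 FPKM. The *Oas1a* and *Oas1g* transcripts share 730 stretches of 100 nt, 34.9% of *Oas1a* and 33.0% of *Oas1g*. Both levels are less certain, since reads that mapped to several places were dropped by the authors. *Oas2* was at 29.7 and 31.6 FPKM. *Oas3* was at 61.7 and 70.2 FPKM, a log2 ratio of 0.18. The OAS-like genes were the most abundant of the family. *Oasl1*, which restrains translation of *Irf7* mRNA, was at 213 FPKM in WT against 228 FPKM in ΔM. *Oasl2* was at 216 and 224 FPKM, and its counting interval, from -0.00 to 0.11, included 0. That interval rests on a median transcript length of 856.5 nt and would be narrower for a longer transcript.

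The Mx proteins are dynamin-like GTPases that trap viral nucleocapsids, although C57BL/6 mice are known to carry a disabling mutation in *Mx1*. *Mx1* RNA was nonetheless among the highest of the group at 373 FPKM in WT against 392 FPKM in ΔM. *Mx2* was at 39.4 and 38.1 FPKM. The log2 ratios were 0.07 and -0.05, and the counting interval of *Mx2* included 0.

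The 5 genes of ISG15 conjugation all had log2 ratios above 0, as did 53.8% of all genes, with a median of 0.06. *Isg15*, a ubiquitin-like modifier, stood at 124.5 FPKM in WT against 145 FPKM in ΔM, a log2 ratio of 0.22 with a counting interval from 0.14 to 0.30. *Usp18*, which removes ISG15 from its targets and damps signaling at IFNAR, stood at 305 and 376 FPKM. Its log2 ratio of 0.30 had a counting interval from 0.27 to 0.33. The enzymes that attach ISG15 differed less. *Uba7*, the activating enzyme, was at 258 FPKM in WT against 269 FPKM in ΔM. *Herc6*, the mouse ligase for ISG15, was at 76.0 and 78.2 FPKM. *Trim25*, a ligase that acts on RIG-I, was at 49.8 and 51.1 FPKM, and its interval included 0, as did that of *Herc6*.

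Sensors of foreign RNA were nearly equal in the genotypes. *Ddx58*, encoding RIG-I, was at 201 FPKM in WT against 212 FPKM in ΔM. *Ifih1*, encoding MDA5, was at 201 and 191 FPKM. *Dhx58*, encoding their regulator LGP2, was at 159 and 155 FPKM. *Eif2ak2* encodes PKR, the kinase that stops translation on sensing double-stranded RNA, and was at 68.2 FPKM in WT against 69.8 FPKM in ΔM. The log2 ratios of the 4 sensors lay between -0.08 and 0.08, and the intervals of *Dhx58* and *Eif2ak2* included 0. Those intervals rest on median transcript lengths of 786 and 666 nt and would be narrower for longer transcripts.

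Of the DNA sensors and PYHIN genes, 3 of 4 had log2 ratios below 0, as did 45.9% of all genes. *Ifi205*, a PYHIN gene of chromosome 1, was at 185 FPKM in WT against 142 FPKM in ΔM, and moved from rank 17 to rank 25 among the members, the largest shift in rank of 8 places. Its log2 ratio of -0.38 had a counting interval from -0.42 to -0.33. *Ifi205* also shared the most sequence with other genes, 41.5% of its stretches of 100 nt with *Mnda* and *Mndal*. *Ifi203* was at 105 and 92.4 FPKM. *Ifi204*, with 15.7% of its stretches shared, was at 174 and 172 FPKM, and its interval included 0. *Zbp1*, a sensor of Z-form nucleic acids that triggers necroptosis, was at 80.5 FPKM in WT against 81.8 FPKM in ΔM.

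Factors that act at membranes were similar in the libraries. *Bst2*, encoding tetherin, which holds budding virions on the cell, was at 296 FPKM in WT against 275 FPKM in ΔM, a log2 ratio of -0.11. *Ifitm2* and *Ifitm3* hinder fusion of viral and endosomal membranes. *Ifitm3* was at 189 and 196 FPKM. *Ifitm2* was at 83.7 and 77.7 FPKM, and both Ifitm intervals included 0.

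In the PARP and DTX3L group, 3 of 4 genes had log2 ratios below 0, as did 45.9% of all genes. PARP9 and the ubiquitin ligase DTX3L form a complex that acts in interferon signaling, and their genes lie head to head on chromosome 16. *Parp9* stood at 80.2 FPKM in WT against 64.6 FPKM in ΔM, a log2 ratio of -0.31 with a counting interval from -0.38 to -0.25. *Dtx3l* was at 24.5 and 23.0 FPKM, a log2 ratio of -0.09. The genes overlap by 682 bp on opposite strands, and where strand was not used in counting, reads of the overlap cannot be assigned. *Parp14*, a mono-ADP-ribosyltransferase from the same region, was at 97.1 FPKM in WT against 83.3 FPKM in ΔM, a log2 ratio of -0.22. *Parp12*, which lies elsewhere, was at 92.4 and 103 FPKM, a log2 ratio of 0.16.

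Both genes grouped here as TRIM ligases had log2 ratios below 0, as did 45.9% of all genes. *Trim25*, also a TRIM ligase but placed with ISG15 conjugation, had a log2 ratio of 0.04. *Trim21*, a ubiquitin ligase and cytosolic antibody receptor, was the least abundant member at 23.4 FPKM in WT against 18.8 FPKM in ΔM. Its log2 ratio of -0.30 had a counting interval from -0.41 to -0.22. *Trim30a*, which restrains NF-κB signaling, was at 128 and 120.1 FPKM, a log2 ratio of -0.09.

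Of the other 7 members, 6 had log2 ratios above 0, as did 53.8% of all genes. *Ifi44* had the highest log2 ratio of all members, 0.35, with a counting interval from 0.30 to 0.41. It stood at 98.6 FPKM in WT against 126 FPKM in ΔM. *Rnf213*, a giant ubiquitin ligase, was at 144 FPKM in WT against 159.7 FPKM in ΔM. *Ifi47*, an immunity-related GTPase, was at 140.3 and 153 FPKM. *Sp100*, a component of PML nuclear bodies, was at 200.4 and 214 FPKM. *Ifi35* was at 164 FPKM in WT against 171 FPKM in ΔM. *Lgals9* encodes galectin-9 and was at 241 and 244 FPKM, with an interval that included 0. *Xaf1*, which promotes apoptosis, was the exception at 239 and 216 FPKM, a log2 ratio of -0.15.

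**Figure D4:**
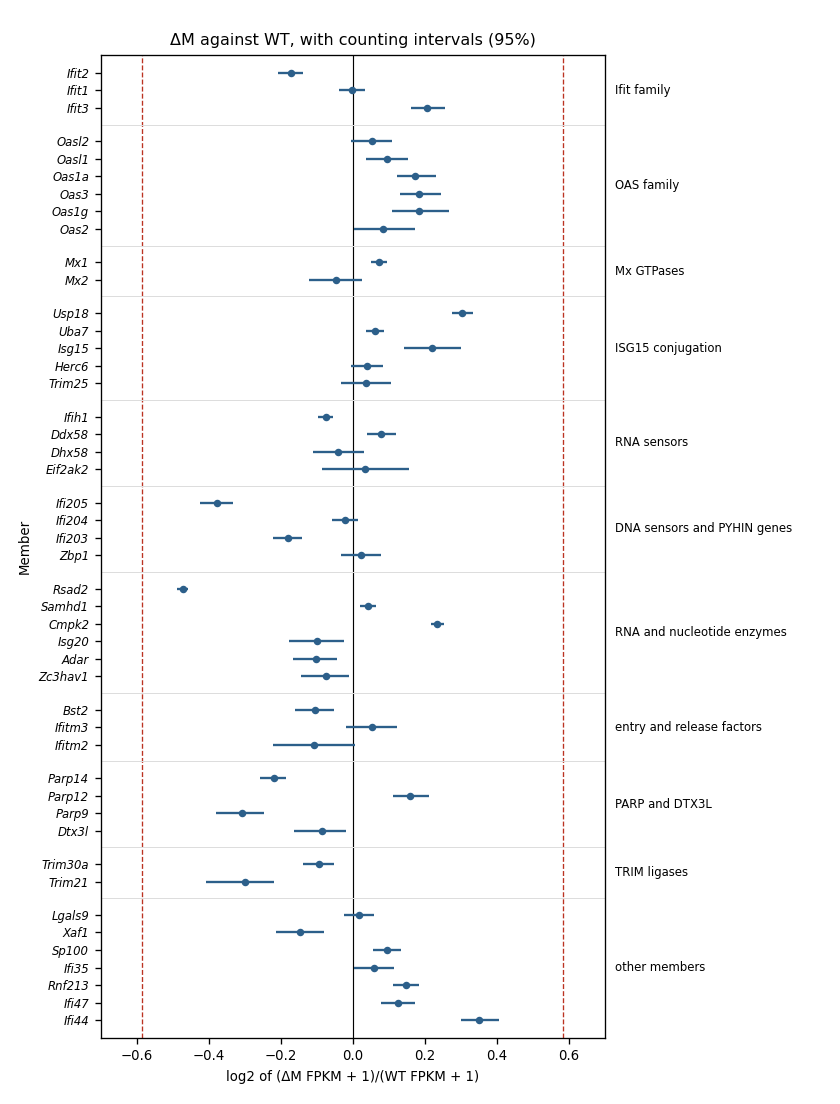
Log2 ratio of ΔM to WT after adding 1 FPKM (points, x axis) for each member by role, with 95% counting intervals of the ratio without the added 1 FPKM (lines). All 46 points lie between the dashed lines at 1.5-fold, *Rsad2* is lowest at -0.47, *Ifi44* is highest at 0.35, and the OAS and ISG15 conjugation groups lie to the right of 0.

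The order of the members by level was largely kept between the genotypes. Of the 10 highest members, 9 were shared by both libraries, with *Rsad2*, *Samhd1*, *Cmpk2*, *Mx1* and *Usp18* in the first 5 places of each. Across the 46 members, log2(FPKM + 1) in WT and ΔM had a Pearson's r of 0.99, a description across genes of 1 pair of libraries. At least 100 FPKM was reached by 28 members in WT and 29 in ΔM. The level in ΔM was within 10% of that in WT for 29 members and within 20% for 42.

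The genes that make and relay interferon were described from a separate list of 34 genes with a row in the table. Of these, 27 had a mean of at least 1 FPKM. Their median log2 ratio was 0.01, with 16 ratios above 0 and 11 below. Ratios above 0 were found for 53.8% of all genes and 49.5% of protein-coding genes. At 1.5-fold, 11.2% of all genes were higher and 7.51% lower, against 4.82% and 5.36% of protein-coding genes. Of the 27 pathway genes, 1 passed 1.5-fold, downwards. That gene was *Ptpn6*, encoding SHP-1, a phosphatase that damps JAK signaling, at 678 FPKM in WT against 409.6 FPKM in ΔM, a log2 ratio of -0.73. The interferon genes themselves were at or near 0. *Ifnb1*, encoding interferon β, was listed at 0 in WT and at 0.48 FPKM in ΔM. *Ifna1*, *Ifna2*, *Ifna4* and *Ifna5* were listed at 0 in both libraries, and *Ifng* at 0 and 0.09 FPKM.

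Receptors and kinases of the pathway were present in both genotypes. *Ifnar1*, a chain of the type I interferon receptor, was at 76.5 FPKM in WT against 76.3 FPKM in ΔM. *Ifnar2*, the other chain, was at 108 and 92.9 FPKM. The chains of the interferon γ receptor, *Ifngr1* and *Ifngr2*, had log2 ratios of 0.02 each. Of the kinases, *Jak1* was at 39.6 and 39.9 FPKM and *Tyk2* at 14.3 and 12.5 FPKM. *Jak2*, which serves the interferon γ receptor, was at 50.1 FPKM in WT against 37.4 FPKM in ΔM, a log2 ratio of -0.41.

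Transcription factors of the pathway included a gene more abundant than any antiviral member. *Irf7*, the factor that amplifies type I interferon and is itself an ISG, was at 989 FPKM in WT against 994 FPKM in ΔM. *Stat2* was at 68.1 and 73.0 FPKM. *Irf9*, whose protein belongs to the complex that binds the ISRE, was at 18.1 FPKM in WT against 18.0 FPKM in ΔM. *Irf1* was at 107 and 109.5 FPKM. *Irf3*, the factor downstream of TRIF, was at 7.34 and 7.71 FPKM. *Irf5* was at 97.8 and 136 FPKM and *Irf2* at 11.2 and 14.9 FPKM, with log2 ratios of 0.47 and 0.38.

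Upstream of interferon β, the LPS receptor *Tlr4* was at 12.2 FPKM in WT against 16.3 FPKM in ΔM, and *Tmem173*, encoding STING, at 7.46 and 9.80 FPKM. The kinase genes *Tbk1* and *Ikbke* had log2 ratios of -0.14 and -0.09. *Traf3* was at 3.89 and 3.01 FPKM, *Ticam1*, encoding TRIF, at 2.09 and 1.87 FPKM, and *Mavs*, the adaptor of the RNA sensors, at 1.46 and 1.51 FPKM. Of the inhibitors besides *Ptpn6*, *Socs3* was at 114 FPKM in WT against 137 FPKM in ΔM, *Socs1* at 9.58 and 11.1 FPKM, and *Pias1* and *Ptpn11* had log2 ratios of -0.06 and 0.01.

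**Figure D5:**
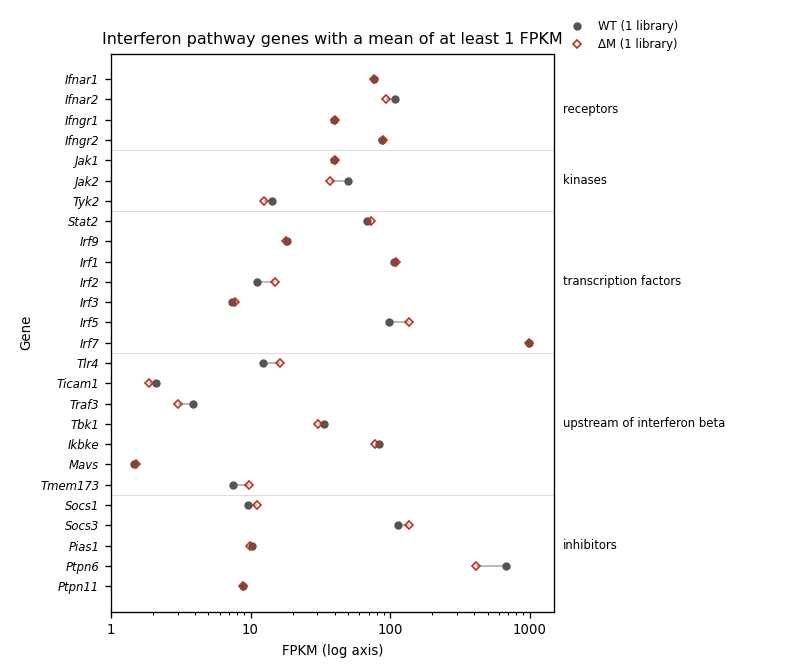
FPKM (log axis) in the WT library (filled circles) and the ΔM library (open diamonds) for 26 genes of the interferon pathway list with a mean of at least 1 FPKM, by role. The symbols of *Irf7* coincide near the upper end, at 989 and 994 FPKM, and *Ptpn6* shows the widest gap, at 678 and 409.6 FPKM.

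AU-rich heptamers in 3′ UTRs were counted as a sequence feature that the choice of genes did not use. TATTTAT occurred in the longest annotated 3′ UTR (GENCODE M1, given strand, overlaps counted) of 10 members, 21.7%. Of 7935 protein-coding genes with a 3′ UTR and a mean of at least 1 FPKM, 27.0% held it. The shorter AU-rich pentamer ATTTA, which the heptamer contains, occurred in 33 members (71.7%) and in 66.6% of the protein-coding genes. The median length of these 3′ UTRs was 1129 nt for the members and 1121 nt for the protein-coding genes. The 10 members were *Eif2ak2*, *Ifi203*, *Ifi44*, *Ifih1*, *Ifit1*, *Mx1*, *Oas3*, *Sp100*, *Trim30a* and *Usp18*. Their log2 ratios ranged from -0.18 (*Ifi203*) to 0.35 (*Ifi44*) with a median of 0.05, and the other 36 members had a median of 0.03. For protein-coding genes the medians were 0.00 with the heptamer and -0.01 without it.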

How the data were processed

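RNA-Seq served as the control without crosslinking for a map of TTP binding. The authors depleted rRNA, fragmented the RNA, trimmed reads with Cutadapt, mapped them to mm9 with Segemehl, kept unique hits and estimated expression with Cufflinks over Ensembl exons. Deposited values are FPKM with 2 decimals, 1 per gene, normalized by Cufflinks to mapped fragments. Sample titles carry a 7 after LPS, while the protocol gives 6 h. Log2 ratios, counts and medians were calculated here with Python 3.11.15, numpy 2.4.6, pandas 2.3.3, scipy 1.17.1 and matplotlib 3.10.9. Starts of genes were moved by 1 to count from 1. Gene types came from GENCODE M1. Fragment numbers, under which 92.7% (WT) and 92.0% (ΔM) of low FPKMs were whole multiples of 1 fragment (tolerance 0.1), gave exact Poisson and Clopper-Pearson intervals (95%) and are approximate. The search and the ratios were tested on simulated data, where the depth of 3 libraries was recovered with an error of at most 0.71%. The simulation used the same length formula as the search, so it cannot show whether that formula holds for the deposited values. The members and lists were chosen with earlier results of these data known. All members and all pathway genes may be named, and any other gene was picked with its values known. Alternatives were the pseudocount, the filter, scaling, shared sequence and the fold. For 1 pathway gene, counted in the list, values are not reported here. Columns of the authors' comparisons were not used.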

Additional observations from a re-analysis of the deposited data

How the results depend on the processing

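No paired analysis was possible because each genotype has 1 library. No member passed 1.5-fold under any alternative (pseudocounts of 0.1 and 5 FPKM, no filter, a minimum of 10 FPKM, centring, scaling, or without the 5 members that share at least 10% of their 100-mers), nor passed 2-fold. At 1.2-fold, chosen after seeing the data, 2 members were higher and 4 lower. The median log2 ratio of the members stayed between 0.03 and 0.06. *Ifit1* alone changed sign, under centring and scaling. The median of all genes was 0.018 with 5 FPKM added, 0.00 without the filter, 0.0384 at a minimum of 10 FPKM and 0.049 after centring, and the cause was not tested. Variation between cultures cannot be estimated from 1 library. FPKM are shares of the mapped fragments and hold no measure of RNA per cell.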
